A study of Mus musculus with 34 samples.

Results

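Adipose tissue of mice that ate a high-fat, high-calorie diet with repeated bouts of a fasting mimicking diet (HFCD+FMD) was compared with adipose tissue of mice on a control diet, to ask which genes differed from control despite the cycles. The members are the adipose count columns labelled with these diets, 6 HFCD+FMD libraries and 3 control libraries, 9 of the 34 samples the labels list for heart and adipose tissue. All mice were C57BL/6J, carried no transgene or deletion according to the labels, and were 20 or 21 months old. The age was 21 months for control replicate 1 and HFCD+FMD replicate 3 and 20 months for the other 7 libraries. Control mice ate a diet with 10% of calories from fat. HFCD+FMD mice ate a diet with 60% of calories from fat and, every 4 weeks, 5 days of the fasting mimicking diet, a low-calorie regimen meant to bring about the metabolic state of fasting while some food is eaten. From cycle 6 these 5 days were followed by 2 days of control diet. Tissue was taken after 11 cycles, 4 days after the end of the last one, so an effect of repeated cycles and an effect of the last fast and refeeding cannot be told apart. Each library therefore also differs from control in its long-term fat intake and in its recent feeding. The labels name 5 control and 6 HFCD+FMD adipose samples, and the 2 control samples without a column were not analysed here. The 4 libraries of mice on the uninterrupted high-fat diet (HFCD, 60% of calories from fat) entered the same model for the estimate of the spread, and their levels are given beside the others for some of the genes. The labels name 6 HFCD adipose samples, and those without a column were not analysed here. The age was 21 months for HFCD replicate 1 and 20 months for HFCD replicates 2, 3 and 4. Sex, fat depot and pooling are not given in the sources used here. The design text speaks of 18 mice, and nothing else ties a library to an animal, so p-values measure the spread between libraries.

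White adipocytes store fat as triglyceride and can build fatty acids from glucose through de novo lipogenesis, a pathway raised by insulin and carbohydrate and lowered by dietary fat and by fasting. Between the adipocytes lie macrophages, lymphocytes, endothelial cells, pericytes and fibroblast-like progenitors, and high-fat feeding enlarges adipocytes, brings in macrophages and remodels matrix and vessels. Fasting empties the fat stores through lipolysis and refeeding refills them, so many of these genes follow the recent meal as well as the long-term diet.

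Library totals ran from 15604982 to 28495331 counts in control and from 27868228 to 40831656 in HFCD+FMD. Control replicate 1 had the lowest total. The share of counts from genes of the mitochondrial genome was 29.3, 17.0 and 12.6% in control replicates 1, 3 and 5 and 2.20 to 7.47% in HFCD+FMD. The 10 most abundant genes held 25.7 to 42.1% of control counts and 8.43 to 17.9% of HFCD+FMD counts. Levels are CPM, read counts relative to the library total after TMM scaling. Control values are given in the order of replicates 1, 3 and 5, and values of all HFCD+FMD libraries in the order of replicates 1 to 6. In every library adipocyte markers were abundant: Adipoq, which encodes adiponectin, lay at 4261, 3466 and 2400.1 CPM in control and at 1390.5 to 3365 CPM with a median of 2799.9 in HFCD+FMD. Of the markers of brown adipocytes and of epididymal and mammary epithelium, Zic1, Lhx8, Lcn5, Adam7, Crisp1, Krt14, Krt5 and Epcam were not among the genes tested. In bulk tissue fewer cells of a type and less RNA per cell cannot be told apart.

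Of 15112 genes tested, 2978 (19.7%) differed between HFCD+FMD and control at an adjusted p below 0.05 (edgeR quasi-likelihood test, Benjamini-Hochberg). Differences of level are given as log2 fold changes (log2FC), HFCD+FMD minus control unless HFCD is named. HFCD+FMD was higher for 1580 genes (10.5%) and lower for 1398 (9.25%). Past a 2-fold change there were 815 higher (5.39%) and 497 lower genes (3.29%). Every HFCD+FMD library lay above every control library for 1591 genes (10.5%) and below for 1584 (10.5%). The counts rest on the control libraries. Without control replicate 1 the fit called 372 genes higher and 291 lower, and without control replicate 3 it called 549 higher and 615 lower. In each of 13 fits that left out 1 of the 13 adipose libraries, 300 genes passed as higher and 241 as lower, together 541 (3.58%). Some gene lists below had 0 edgeR calls in a direction. Among these the macrophage and collagen lists each held 1 lower gene at an unadjusted p below 0.05, 1 with DESeq2 and 0 with limma voom. The thermogenic list held 2 higher genes at an unadjusted p below 0.05, and 0 with DESeq2 or limma voom. Values for the smooth muscle, fibroblast, mesothelial and B cell lists stand with their results. The other lists described with 0 calls in a direction held 0 genes in that direction by all 3 measures. In the same model HFCD+FMD differed from HFCD for 31 genes (0.205%). The plot of fold change against p shows all genes tested.

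**Figure D1:**
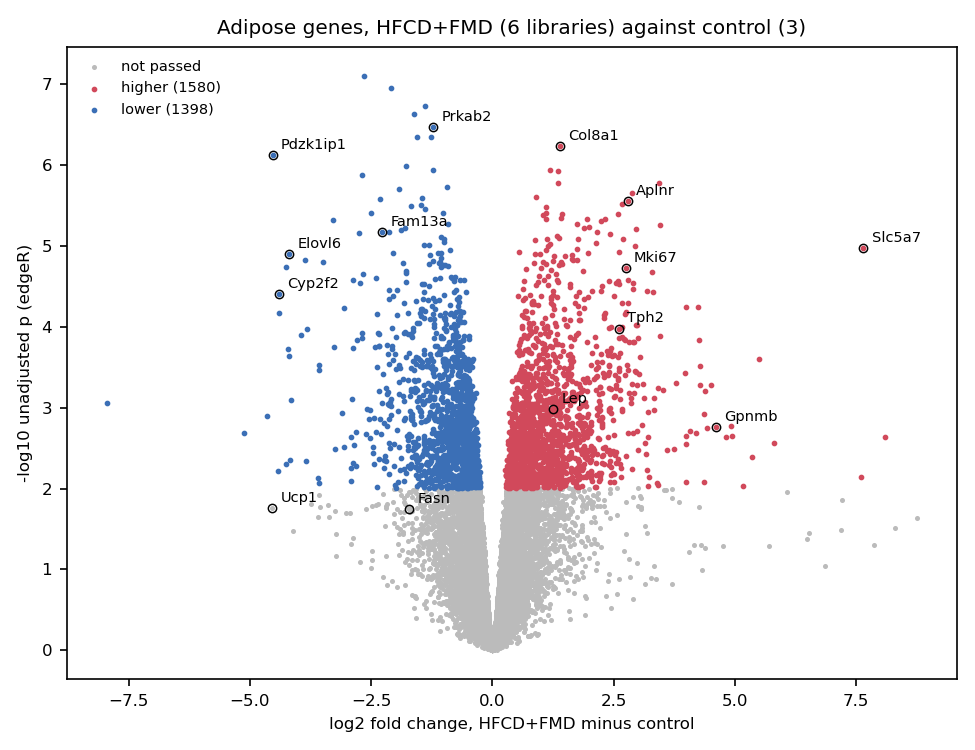
Each of 15112 genes by its log2 fold change between HFCD+FMD (6 libraries) and control (3 libraries) on the x axis and its unadjusted edgeR p, as -log10, on the y axis, with red for the 1580 genes that passed as higher and blue for the 1398 that passed as lower. Circled genes include Ucp1 and Fasn, which did not pass.

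Most genes of de novo lipogenesis were lower in HFCD+FMD than in control. Of 26 measured, 15 passed as lower and 0 as higher, with a median log2 fold change of -1.03 against 0.003 over all genes tested. Elovl6, the elongase of long-chain fatty acids (chr3:129532355-129638495, plus strand, GRCm38), measured 1397, 1348 and 630.0 CPM in control. In HFCD+FMD it measured 28.3, 103, 97.5, 19.0, 109.9 and 11.3 CPM, and in HFCD 12.3 to 23.8 CPM. All 6 HFCD+FMD libraries lay below every control library (log2FC -4.19, SE 0.62, adjusted p = 0.00236). Within the group replicates 2, 3 and 5 lay above replicates 1, 4 and 6. Me1, the malic enzyme that supplies NADPH for fatty acid synthesis, measured 1919.9, 2142 and 1043 CPM in control and 214 to 575 CPM with a median of 388 in HFCD+FMD (log2FC -2.12, SE 0.30, adjusted p = 0.00201). G6pdx, the first enzyme of the pentose phosphate pathway and another source of NADPH, measured 866, 790.3 and 877 CPM against 338 to 565 CPM with a median of 413 (log2FC -1.0003, SE 0.14, adjusted p = 0.0021). Tkt, a transketolase of the same pathway, fell with log2FC -1.75, SE 0.33, adjusted p = 0.00587. Scd1, the desaturase that makes oleate, was the highest of these genes in CPM, unadjusted for length, in control, at 117482, 107944 and 88873 CPM, and measured 7818 to 40369.7 CPM with a median of 21236 in HFCD+FMD (log2FC -2.16, SE 0.43, adjusted p = 0.00753). Acaca, which makes malonyl-CoA, also fell (log2FC -2.18, SE 0.49, adjusted p = 0.0125). The call of Acaca was lost without control replicate 1 (adjusted p = 0.0615).

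Fasn, the fatty acid synthase, did not pass. It measured 12519, 14951 and 9197 CPM in control and 1278, 6189.6, 6417, 769, 6974 and 804 CPM in HFCD+FMD (log2FC -1.71, SE 0.63, adjusted p = 0.0716). All 6 values were below all 3 control values, but replicates 2, 3 and 5 again lay above replicates 1, 4 and 6, and HFCD measured 1034 to 1377 CPM. Acly, the citrate lyase that supplies cytosolic acetyl-CoA, showed the same replicates high and low at 308, 1247, 1233, 344, 1238 and 259 CPM (log2FC -1.24, SE 0.50, adjusted p = 0.0918). Of the transcription factors that drive these enzymes, Mlxipl (ChREBP) had a log2FC of -0.88, adjusted p = 0.0718, and Srebf1 (SREBP-1) one of 0.09, adjusted p = 0.839. Summed over the 26 genes, the level was 113767 to 155401 CPM in control and 17043 to 60806 CPM in HFCD+FMD. The 15 calls became 7 without control replicate 1 and 11 without control replicate 3.

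Cholesterol genes moved in both directions. Of 23 tested, 7 passed as lower and 3 as higher, and the share of higher genes was near the 10.5% over all genes tested. Among the higher ones were Stard4, a carrier of cholesterol between membranes, with 7.07, 6.85 and 8.31 CPM in control and 13.3 to 19.0 CPM with a median of 14.9 in HFCD+FMD (log2FC 1.10, SE 0.17, adjusted p = 0.00249) and Srebf2, which encodes the activator of cholesterol synthesis (log2FC 0.61, SE 0.16, adjusted p = 0.0222). The groups did not overlap for Stard4 and overlapped for Srebf2. Lower were enzymes of the synthesis itself: Tm7sf2, a sterol reductase, went from 12.9 to 19.7 CPM to 2.08 to 7.52 CPM (log2FC -1.62, SE 0.33, adjusted p = 0.00821), Lss, the lanosterol synthase, had a log2FC of -1.20, adjusted p = 0.01, and Pmvk, the phosphomevalonate kinase, one of -0.94, adjusted p = 0.0119. Dropping control replicate 1 ended the calls of Srebf2 and Tm7sf2 (adjusted p from 0.0528 to 0.114). Srebf2, Lss and Pmvk did not pass once control replicate 3 was dropped (adjusted p from 0.0572 to 0.0897).

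**Figure D2:**
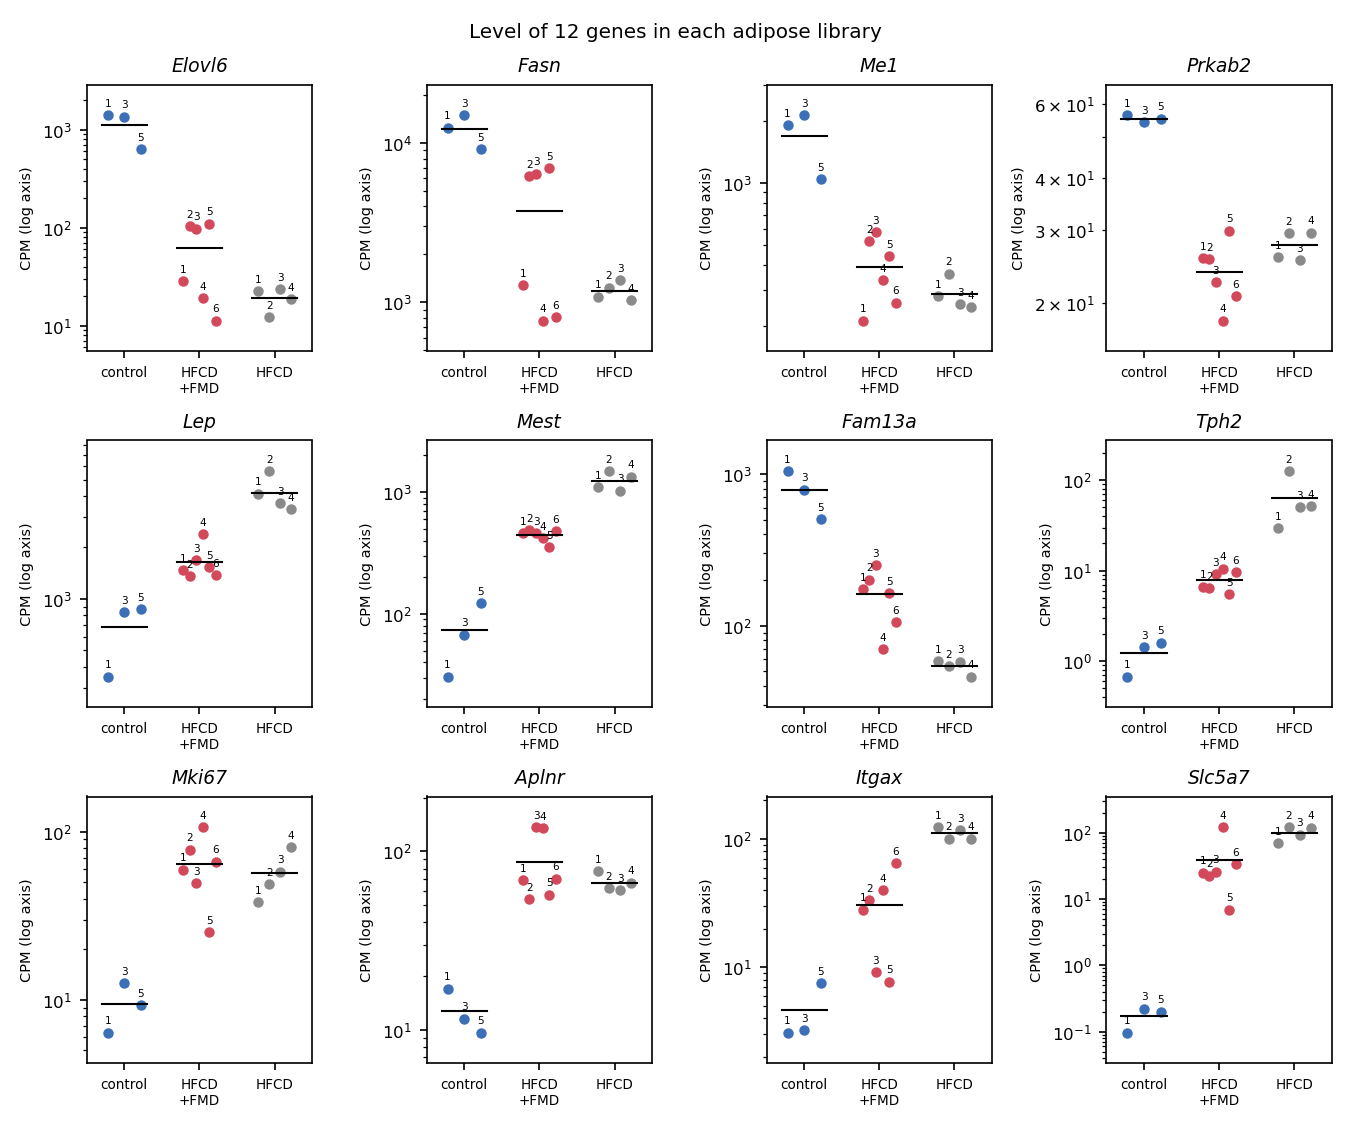
CPM on log axes for 12 genes in each adipose library of the 3 diets, with points numbered by replicate and a line at the arithmetic mean. Elovl6, Me1, Prkab2 and Fam13a lie lower in all 6 HFCD+FMD libraries than in all 3 control libraries, Mest, Tph2, Mki67, Aplnr and Slc5a7 lie higher, and Fasn is lower in all 6 but did not pass.

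RNAs of the mitochondrial genome were lower as well, and nuclear genes of respiration in part. All 9 tested genes of a list of mitochondrially encoded genes passed as lower, with a median log2 fold change of -2.27. The 6 other genes of that list were not among the genes tested. Some other RNAs of the mitochondrial genome were tested but lie outside that list. mt-Co1, a catalytic subunit of cytochrome c oxidase, measured 71807, 32932 and 22939.8 CPM in control and 3704 to 10955 CPM with a median of 8669 in HFCD+FMD (log2FC -2.39, SE 0.42, adjusted p = 0.00444). mt-Nd6, encoded on the other strand of the mitochondrial genome from most of its genes, went from 676, 423 and 393 CPM to 86.0 to 187 CPM with a median of 157 (log2FC -1.77, SE 0.28, adjusted p = 0.0028). mt-Nd4, a subunit of complex I, and mt-Cytb, of complex III, had log2FCs of -2.69, adjusted p = 0.0058 and -2.69, adjusted p = 0.00603. The groups did not overlap for these 4 genes, and control replicate 1 had the highest value of each. Without it the log2 fold changes of mt-Nd4, mt-Cytb and mt-Co1 were -2.04, -2.10 and -1.78, and 4 of the 9 genes passed. The part of RNA quality and tissue handling in the mitochondrial share was not tested. Of 73 nuclear genes of oxidative phosphorylation, 24 passed as lower and 0 as higher, with a median of -0.39. Ndufa1, a subunit of complex I, measured 109, 57.6 and 46.5 CPM against 25.0 to 35.0 CPM with a median of 31.5 (log2FC -1.19, SE 0.20, adjusted p = 0.00385), and Cox6c, of complex IV, had a log2FC of -1.05, adjusted p = 0.00593. Of the 24 calls, 2 were left without control replicate 1 and 11 without control replicate 3, by count.

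Genes that pass pyruvate into mitochondria were lower in part. Of 29 genes of pyruvate entry and the tricarboxylic acid cycle, 9 passed as lower and 1 as higher. Mpc1, a subunit of the mitochondrial pyruvate carrier (chr17:8282904-8297661, plus strand), measured 14.4, 15.9 and 12.3 CPM in control and 2.63 to 5.82 CPM with a median of 3.93 in HFCD+FMD (log2FC -1.80, SE 0.25, adjusted p = 0.00198). Pdha1, the catalytic subunit of pyruvate dehydrogenase, had a log2FC of -0.98, adjusted p = 0.00442, and Pdk2, a kinase that switches that enzyme off, one of -1.21, adjusted p = 0.00249. The exception was Idh2, a mitochondrial isocitrate dehydrogenase that makes NADPH, with 75.8, 71.7 and 66.7 CPM in control and 92.0 to 149.5 CPM with a median of 113 in HFCD+FMD (log2FC 0.68, SE 0.15, adjusted p = 0.0104). Among 26 genes of branched-chain amino acid breakdown, 6 passed as lower and 0 as higher. Of these, Hsd17b10, which acts on isoleucine, had a log2FC of -0.79, adjusted p = 0.00513, and Bckdhb, a subunit of the branched-chain ketoacid dehydrogenase, one of -0.95, adjusted p = 0.00906. Bckdhb failed the threshold without control replicate 1 (adjusted p = 0.0651). The 9 lower calls of pyruvate entry became 3 without control replicate 1, and the 6 of branched-chain breakdown became 1.

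Adipocyte genes outside lipogenesis were lower in part. Of 25 genes of lipolysis and the lipid droplet, 7 passed as lower and 1 as higher, and of 24 adipocyte identity genes 5 passed as lower and 1, Lep, as higher. In both lists the share of higher genes was below the 10.5% over all genes tested. Pde3b, the phosphodiesterase through which insulin restrains lipolysis, measured 686, 648 and 432 CPM in control and 246 to 321 CPM with a median of 277 in HFCD+FMD (log2FC -1.05, SE 0.16, adjusted p = 0.00258). Pnpla2, the triglyceride lipase ATGL, had a log2FC of -0.92, adjusted p = 0.00843. Fabp4, the fatty acid carrier of adipocytes, measured 28935, 19777 and 15645 CPM against 7360.3 to 13382 CPM with a median of 8986 (log2FC -1.14, SE 0.25, adjusted p = 0.011). Pck1, which makes glycerol-3-phosphate for triglyceride, had a log2FC of -1.61, adjusted p = 0.00906, and Rbp4, the retinol carrier, one of -1.95, adjusted p = 0.0157. The higher gene of the lipolysis list was Adrb1, a receptor for noradrenaline (log2FC 0.82, SE 0.26, adjusted p = 0.0419), with overlapping groups. Adiponectin (Adipoq) had a log2FC of -0.38, adjusted p = 0.328, and Retn, which encodes resistin, one of -1.06, adjusted p = 0.0764. Of 25 genes of insulin signalling and glucose uptake, 4 passed as lower and 2 as higher. That share of higher genes was below the 10.5% over all genes tested. Ppp1r3c, which directs a phosphatase to glycogen, went from 51.1, 91.8 and 35.0 CPM to 12.2 to 26.4 CPM with a median of 16.7 (log2FC -1.78, SE 0.28, adjusted p = 0.00306). The higher ones were Akt1, a kinase below the insulin receptor (0.60, adjusted p = 0.0142), and Ptpn1, a phosphatase that acts on that receptor (0.61, adjusted p = 0.0142). Slc2a4, the insulin-regulated glucose transporter, had a log2FC of -0.31, adjusted p = 0.329, and Irs1 one of -0.72, adjusted p = 0.196. The calls of Fabp4, Pck1, Pnpla2, Rbp4, Akt1, Ptpn1 and Adrb1 were lost without control replicate 1 (adjusted p from 0.0537 to 0.0779). Dropping control replicate 3 ended the calls of Akt1, Ptpn1 and Adrb1 (adjusted p from 0.0699 to 0.16). Adrb1 did not pass once control replicate 5 was dropped (adjusted p = 0.111). Adrb1 was lost as well without HFCD+FMD replicate 1, 2, 3, 4 or 6 or without HFCD replicate 1 or 4 (adjusted p from 0.0512 to 0.0687). Without control replicate 1 the 7 lower lipolysis calls became 1 and the 5 lower identity calls became 0.

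Of 20 nutrient-sensing genes 5 passed as lower, against 9.25% of all genes tested. Of these 5, 4 encode subunits of AMPK, the kinase that senses low cellular energy. Prkab2, a regulatory subunit (chr3:97658193-97673812, plus strand), measured 56.3, 54.3 and 55.3 CPM in control and 25.6, 25.5, 22.5, 18.2, 29.9 and 20.8 CPM in HFCD+FMD. The lowest control value was well above the highest HFCD+FMD value (log2FC -1.22, SE 0.13, adjusted p = 0.000966). HFCD measured 25.4 to 29.5 CPM. The catalytic subunits Prkaa1 and Prkaa2 had log2FCs of -0.36, adjusted p = 0.0405 and -0.58, adjusted p = 0.0485, and the regulatory subunit Prkag2 one of -0.39, adjusted p = 0.0389. The fifth lower gene was Nampt, an enzyme of NAD salvage (-0.70, adjusted p = 0.0172). In the same list 2 passed as higher: Camkk2, a kinase upstream of AMPK (0.42, adjusted p = 0.022), and Rptor, a partner of mTOR (0.35, adjusted p = 0.0447). The share of higher genes in this list was near the 10.5% over all genes tested. Nampt, Camkk2, Prkag2, Prkaa1, Rptor and Prkaa2 failed the threshold without control replicate 1 (adjusted p from 0.098 to 0.204). The calls of Camkk2, Prkag2, Prkaa1 and Prkaa2 were lost without control replicate 3 (adjusted p from 0.0559 to 0.142). Dropping control replicate 5 ended the calls of Prkag2 and Rptor (adjusted p from 0.054 to 0.0901). Prkaa2 was lost as well without HFCD+FMD replicate 1, 2, 4 or 6 or without HFCD replicate 1, 2, 3 or 4 (adjusted p from 0.0579 to 0.0831). Prkaa1 was lost as well without HFCD+FMD replicate 2, 4, 5 or 6 or without HFCD replicate 3 (adjusted p from 0.0535 to 0.0602). Prkag2 was lost as well without HFCD+FMD replicate 3, 4 or 6 or without HFCD replicate 3 (adjusted p from 0.0511 to 0.0672). Rptor was lost as well without HFCD+FMD replicate 3, 4, 5 or 6 or without HFCD replicate 1, 2, 3 or 4 (adjusted p from 0.0522 to 0.0771).

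Genes tied to adipocyte expansion differed in part. Of 15 listed, 3 passed as higher, Mest, Peg3 and Sfrp5, and 1 as lower. The share of lower genes was below the 9.25% over all genes tested. Mest, an imprinted gene that rises in expanding fat (chr6:30723547-30748465, plus strand), measured 30.6, 67.4 and 123 CPM in control and 461, 484, 458, 418, 355 and 475 CPM in HFCD+FMD (log2FC 2.58, SE 0.34, adjusted p = 0.00183). HFCD measured 1029.6 to 1481 CPM, so HFCD+FMD lay between the other diets, above every control library and below every HFCD library. Mest was 1 of the 31 genes that differed between HFCD+FMD and HFCD (log2FC -1.48, SE 0.27, adjusted p = 0.0472). Peg3, another imprinted gene, measured 71.6, 37.3 and 51.8 CPM in control and 125 to 247 CPM with a median of 159.7 in HFCD+FMD (log2FC 1.65, SE 0.25, adjusted p = 0.00236). Sfrp5, a secreted Wnt antagonist of adipocytes, measured 6.20, 26.2 and 46.6 CPM and 46.1 to 339 CPM with a median of 134 (log2FC 2.68, SE 0.64, adjusted p = 0.0157), and HFCD+FMD replicate 5 overlapped control. Fam13a, a gene whose variants are linked to body fat distribution, was the lower one, with 1041, 789 and 505 CPM in control, 69.8 to 252 CPM with a median of 169 in HFCD+FMD and 46.2 to 58.5 CPM in HFCD (log2FC -2.27, SE 0.32, adjusted p = 0.00201). Lep, counted above with the identity genes and not in this list, encodes leptin, the hormone that reports fat stores. It measured 351, 837 and 871 CPM in control and 1471, 1363, 1678, 2386, 1536 and 1372 CPM in HFCD+FMD (log2FC 1.25, SE 0.30, adjusted p = 0.0154). HFCD measured 3368 to 5587 CPM, and HFCD+FMD against HFCD gave log2FC -1.36, SE 0.25, adjusted p = 0.0553. Lep and Sfrp5 did not pass once control replicate 1 was dropped (adjusted p from 0.0619 to 0.0624). Sfrp5 failed the threshold without control replicate 3 (adjusted p = 0.0608). Without control replicate 5 the log2 fold changes of Mest and Sfrp5 were 3.17 and 3.37.

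Thermogenic genes rested on 1 control library. Ucp1, the uncoupling protein of brown and beige adipocytes, measured 130.3, 0.533 and 0.0799 CPM in control and 0.990, 0.490, 1.51, 7.53, 0.113 and 0.543 CPM in HFCD+FMD (log2FC -4.54, SE 1.67, adjusted p = 0.0702). Dio2, the deiodinase that activates thyroid hormone, measured 26.7, 2.67 and 2.04 CPM against 0.151 to 1.73 CPM with a median of 0.801 (log2FC -3.57, SE 0.73, adjusted p = 0.00869), and Cidea, a lipid droplet protein of thermogenic fat, 60.3, 4.00 and 1.16 CPM against 0.540 to 4.23 CPM with a median of 2.13 (log2FC -3.25, SE 0.90, adjusted p = 0.0268). Control replicate 1 stood far above the other control libraries for all 3. Of 16 genes in the list 2 passed, Dio2 and Cidea, both as lower, a share near the 9.25% over all genes tested. Ppargc1a, the coactivator of mitochondrial biogenesis, had a log2FC of -1.10, adjusted p = 0.0816. Without control replicate 1 none of Cidea, Dio2 and Ucp1 passed: Cidea had a log2FC of -0.18 (adjusted p = 0.902), Dio2 one of -1.44 (adjusted p = 0.14) and Ucp1 one of 2.61.

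**Figure D3:**
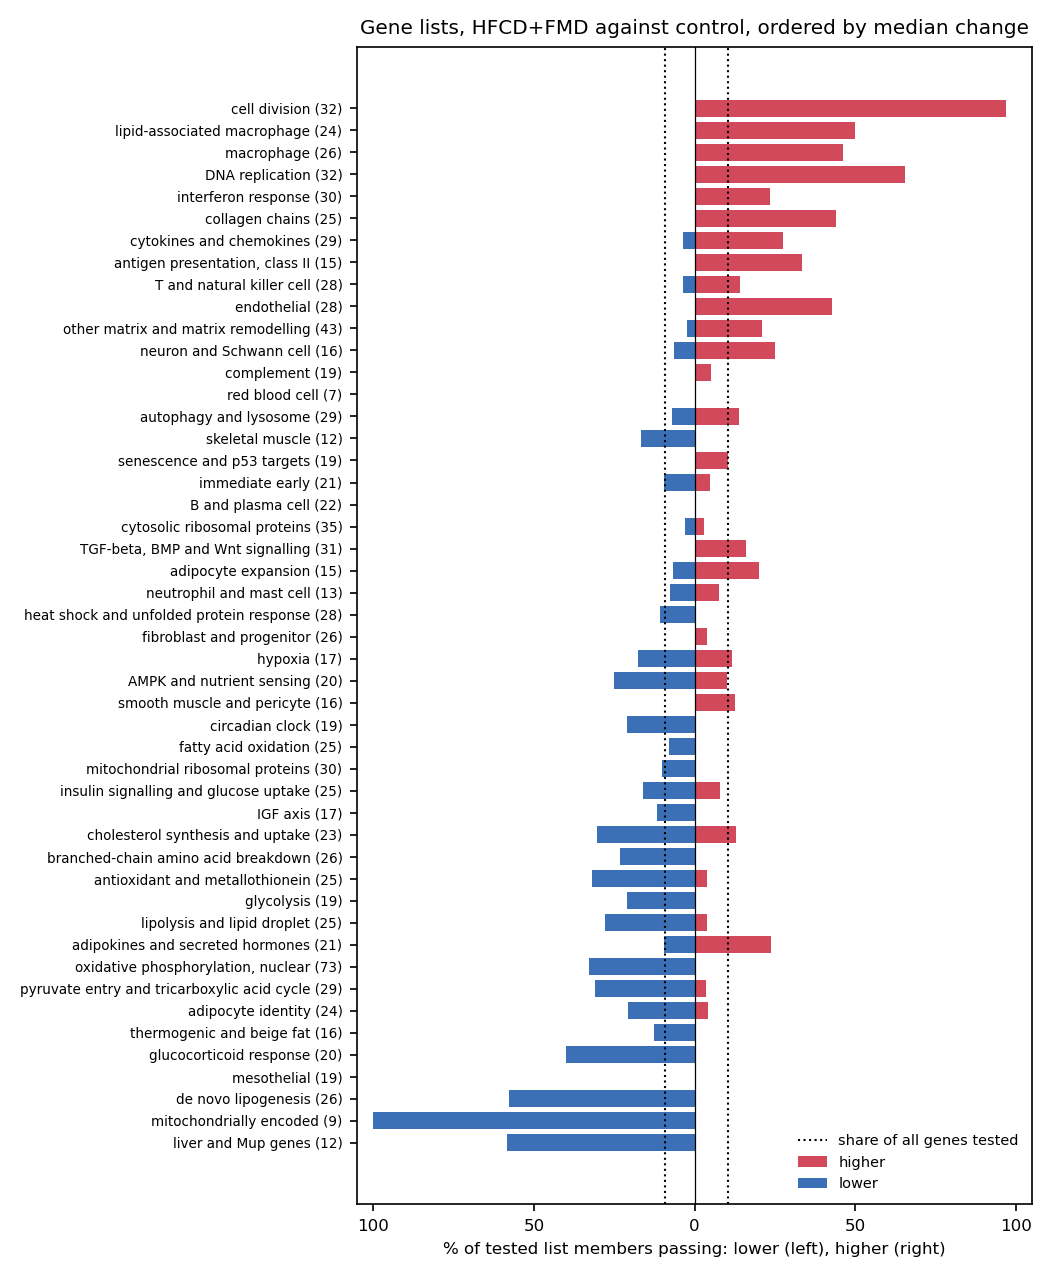
Share of tested members of each gene list that passed as higher (red, right) or lower (blue, left) in HFCD+FMD against control, ordered by the median log2 fold change, with the number tested in brackets and dotted lines at the shares over all genes tested, 10.5% higher and 9.25% lower. Cell division genes passed as higher in 31 of 32 cases and the mitochondrially encoded genes as lower in 9 of 9.

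Many genes of macrophages were higher in HFCD+FMD, unevenly between its libraries. Of 26 macrophage genes 12 passed as higher and 0 as lower (median 1.22), and of 24 genes of lipid-associated macrophages, the lipid-laden type of obese fat, 12 and 0 (median 1.34). Itgax, which encodes CD11c, measured 3.10, 3.25 and 7.51 CPM in control and 28.1, 33.4, 9.14, 39.8, 7.72 and 64.6 CPM in HFCD+FMD (log2FC 2.68, SE 0.64, adjusted p = 0.0153). HFCD measured 101 to 124 CPM. HFCD+FMD replicates 3 and 5 lay close to the highest control value and replicate 6 was the highest. Mpeg1, a pore protein of phagocytes, measured 33.4, 54.3 and 66.8 CPM and 70.0 to 506 CPM with a median of 262 (log2FC 2.40, SE 0.58, adjusted p = 0.0157). Cx3cr1, the fractalkine receptor of monocytes and macrophages, measured 0.0968, 0.756 and 2.44 CPM and 4.14 to 10.7 CPM with a median of 7.15 (log2FC 2.60, SE 0.56, adjusted p = 0.0103). Gpnmb, a glycoprotein of lipid-laden macrophages, measured 7.07, 18.7 and 46.5 CPM in control and 377, 496, 40.6, 1479, 55.1 and 1125 CPM in HFCD+FMD (log2FC 4.61, SE 1.18, adjusted p = 0.0193), and here the groups overlapped. Spp1, which encodes osteopontin, had a log2FC of 4.44, adjusted p = 0.0197, and Trem2, the lipid-sensing receptor of these cells, one of 2.08, adjusted p = 0.0638. The summed macrophage level was 645 to 3489 CPM in control and 2420.3 to 5981 CPM in HFCD+FMD, lowest in control replicate 1. Over the same libraries the adipocyte identity genes summed to 87193 to 131091 CPM and 47411 to 94908 CPM.

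Of 29 cytokine and chemokine genes 8 passed as higher and 1 as lower. Tnf, an inflammatory cytokine, measured 0.290, 0.356 and 0.320 CPM in control and 0.630 to 3.14 CPM with a median of 1.79 in HFCD+FMD (log2FC 2.44, SE 0.48, adjusted p = 0.00694), a low level in every library. Il15, a growth factor of natural killer and T cells, had a log2FC of 1.24, adjusted p = 0.00749. Nos2, the inducible nitric oxide synthase of inflammatory macrophages, measured 8.13, 8.58 and 6.11 CPM and 13.4 to 20.8 CPM with a median of 15.2 (log2FC 1.11, SE 0.22, adjusted p = 0.00698). The lower gene was Cxcl13, a B cell attractant, whose call rested on control replicate 5: 4.94, 9.78 and 39.04 CPM against 1.87 to 5.95 CPM with a median of 4.22 (log2FC -2.13, SE 0.53, adjusted p = 0.0175), and a log2 fold change of -0.85 without that library. Ccl2, the monocyte attractant, had a log2FC of 1.40, adjusted p = 0.189. In the fits without control replicate 1 and without control replicate 3, 1 of 26 macrophage genes passed in each, and 0 and 1 of the 24 lipid-associated genes. With limma voom in place of edgeR 4 of the 24 passed. Among the named immune genes Mpeg1, Itgax, Gpnmb, Spp1, Cx3cr1, Tnf, Nos2, Il15 and Cxcl13 passed in the full fit. The calls of Mpeg1, Itgax, Gpnmb and Spp1 were lost without control replicate 1 (adjusted p from 0.08 to 0.0933). Dropping control replicate 3 ended the calls of Mpeg1, Itgax, Gpnmb and Spp1 (adjusted p from 0.058 to 0.0799). Cxcl13 did not pass once control replicate 5 was dropped (adjusted p = 0.185). Without control replicate 5 the log2 fold changes of Cx3cr1, Gpnmb and Spp1 were 3.86, 5.51 and 5.39, and without HFCD+FMD replicate 4 that of Spp1 was 3.65.

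Interferon-responsive genes passed as higher in 7 of 30 cases and as lower in 0, and class II antigen presentation genes in 5 of 15 and 0. Psmb8, a subunit of the immunoproteasome, measured 32.2, 30.8 and 31.3 CPM in control and 39.6 to 72.1 CPM with a median of 62.0 in HFCD+FMD (log2FC 0.91, SE 0.22, adjusted p = 0.0154). Irf1, an interferon-induced transcription factor, measured 39.1, 35.6 and 37.6 CPM and 49.7 to 70.1 CPM with a median of 58.7 (log2FC 0.66, SE 0.17, adjusted p = 0.0188). Bst2 and Oas1a, both antiviral, had log2FCs of 1.26, adjusted p = 0.0145 and 1.92, adjusted p = 0.0186. For these 4 genes every HFCD+FMD library lay above every control library. H2-DMb1, which helps to load peptides on class II molecules, measured 9.68, 12.8 and 16.5 CPM in control, 20.9 to 42.8 CPM with a median of 30.1 in HFCD+FMD and 54.9 to 86.6 CPM in HFCD (log2FC 1.17, SE 0.24, adjusted p = 0.00871), and it also differed between HFCD+FMD and HFCD (log2FC -1.17, SE 0.20, adjusted p = 0.0346). The other class II calls were Cd40 and Cd86, costimulatory molecules (2.14, adjusted p = 0.0101 and 1.04, adjusted p = 0.036), and Ctss and Ifi30, lysosomal enzymes of antigen processing (2.07, adjusted p = 0.0294 and 1.47, adjusted p = 0.0343). None of the 9 genes named here passed in every fit that left out 1 library. H2-DMb1, Cd40, Ctss, Ifi30, Cd86, Bst2, Psmb8, Oas1a and Irf1 failed the threshold without control replicate 1 (adjusted p from 0.0547 to 0.155). The calls of Ctss, Ifi30, Cd86, Bst2, Psmb8, Oas1a and Irf1 were lost without control replicate 3 (adjusted p from 0.0618 to 0.119). Cd86 was lost as well without HFCD+FMD replicate 1, 2, 4 or 6 (adjusted p from 0.0536 to 0.0559). Ifi30 was lost as well without HFCD+FMD replicate 2, 4 or 6 (adjusted p from 0.0534 to 0.0607). Ctss was lost as well without HFCD+FMD replicate 6 (adjusted p = 0.0523). Without control replicate 5 the log2 fold changes of Cd40 and Ctss were 3.14 and 2.88.

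Cell division genes were higher: 31 of 32 tested passed as higher and 0 as lower, with a median log2 fold change of 2.31. For 29 of the 32 every HFCD+FMD library lay above every control library. The exception among the 32 was Anln, a scaffold of the cleavage furrow, with a log2 fold change of 0.29, adjusted p = 0.298. Mki67, which encodes the proliferation marker Ki-67 (chr7:135689784-135716361, minus strand), measured 6.39, 12.6 and 9.31 CPM in control and 59.5, 78.4, 49.6, 106, 25.3 and 66.3 CPM in HFCD+FMD (log2FC 2.75, SE 0.42, adjusted p = 0.00262). HFCD measured 38.2 to 81.1 CPM. Replicate 4 was the highest and replicate 5 the lowest of the HFCD+FMD libraries, still above all control values. Top2a, the topoisomerase of dividing cells, measured 4.65, 7.20 and 8.63 CPM and 16.6 to 71.6 CPM with a median of 38.6 (log2FC 2.56, SE 0.41, adjusted p = 0.00306). Ccnb2, a mitotic cyclin, measured 1.36, 1.16 and 1.04 CPM and 2.92 to 14.1 CPM with a median of 7.35 (log2FC 2.80, SE 0.45, adjusted p = 0.00304), and Foxm1, a transcription factor of the G2 and M phases, had a log2FC of 2.26, adjusted p = 0.00315. Kifc1, a mitotic kinesin, and Ska1, which ties kinetochores to microtubules, had log2FCs of 4.01, adjusted p = 0.00416 and 4.24, adjusted p = 0.00415 from control levels of 0.0445 to 0.240 CPM and 0 to 0.120 CPM. Without control replicate 5 these were 5.07 and 5.30.

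Of 32 DNA replication genes 21 passed as higher and 0 as lower (median 0.94). Mcm5, a subunit of the replicative helicase, measured 3.39, 5.16 and 5.35 CPM and 11.9 to 36.4 CPM with a median of 19.2 (log2FC 2.24, SE 0.37, adjusted p = 0.00345). Mcm10, which activates that helicase, and Uhrf1, which copies DNA methylation onto new strands, had log2FCs of 2.45, adjusted p = 0.00527 and 2.58, adjusted p = 0.00304. Ccnd1, the cyclin of entry into the cycle, measured 15.2, 22.9 and 31.7 CPM and 45.8 to 103 CPM with a median of 62.6 (log2FC 1.53, SE 0.28, adjusted p = 0.00521), and Lmnb1, a lamin of the nuclear envelope, had a log2FC of 1.06, adjusted p = 0.00702. Mki67, Top2a, Ccnb2, Foxm1, Kifc1, Ska1, Mcm5, Mcm10, Uhrf1, Ccnd1 and Lmnb1 passed in all 13 leave-one-out fits. By count, 18 of the 32 cell division genes passed without control replicate 1 and 24 without control replicate 3, and 7 and 12 of the DNA replication genes. With limma voom in place of edgeR 10 of the 32 cell division genes passed. The division genes do not tell which cells they came from. Endothelial genes summed to 2290.3 to 2404 CPM in control and 2813 to 4630.1 CPM in HFCD+FMD, and the macrophage sums, given above, overlapped between the diets. The part of these cell types in the result was not tested.

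The promoters of Mki67 and Ccnb2 are shown because these had the smallest p of the cell division genes with a promoter entry. They were searched for letters known from cell cycle genes: CCAAT, bound by NF-Y, and TTTGAA, the cell cycle homology region. Capitals mark these motifs on either strand (ATTGG is CCAAT and TTCAAA is TTTGAA read on the other strand), and the 2 motifs do not overlap in these sequences. Both are RefSeq sequences of GRCm38.p6, minus strand, 5′ to 3′, at chr7:135716330-135716629 and chr9:70421505-70421804.
Mki67: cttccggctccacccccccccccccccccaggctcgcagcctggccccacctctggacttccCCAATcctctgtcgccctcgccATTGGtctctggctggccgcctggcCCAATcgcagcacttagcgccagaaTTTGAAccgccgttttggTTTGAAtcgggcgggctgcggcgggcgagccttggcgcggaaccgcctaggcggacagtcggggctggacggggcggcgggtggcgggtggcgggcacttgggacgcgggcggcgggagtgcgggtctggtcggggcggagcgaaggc
Ccnb2: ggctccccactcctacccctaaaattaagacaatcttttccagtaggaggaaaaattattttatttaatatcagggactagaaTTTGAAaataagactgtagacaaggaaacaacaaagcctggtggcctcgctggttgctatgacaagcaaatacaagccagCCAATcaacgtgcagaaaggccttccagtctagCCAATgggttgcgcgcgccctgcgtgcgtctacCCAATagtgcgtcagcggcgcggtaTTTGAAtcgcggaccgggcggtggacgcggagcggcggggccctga
Each holds CCAAT at 3 places and TTTGAA at 2. Of 27 cell division genes with a promoter entry, 20 (74.1%) held TTTGAA and 19 (70.4%) held CCAAT. Over 32851 RefSeq promoters of the same length these shares were 17.9% and 37.4%. For lipogenesis genes with an entry they were 4 of 22 (18.2%) and 11 of 22, and CACGTG, the E-box letters, was held by 2 of 22 (9.09%) against 7.15% of all promoters and 2 of 27 (7.41%) of the division genes. The promoters of Me1 and G6pdx, which had the smallest p of the lipogenesis genes with an entry, held 0 of the 3 motifs in this window. A match describes letters and is no evidence of binding.

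**Figure D4:**
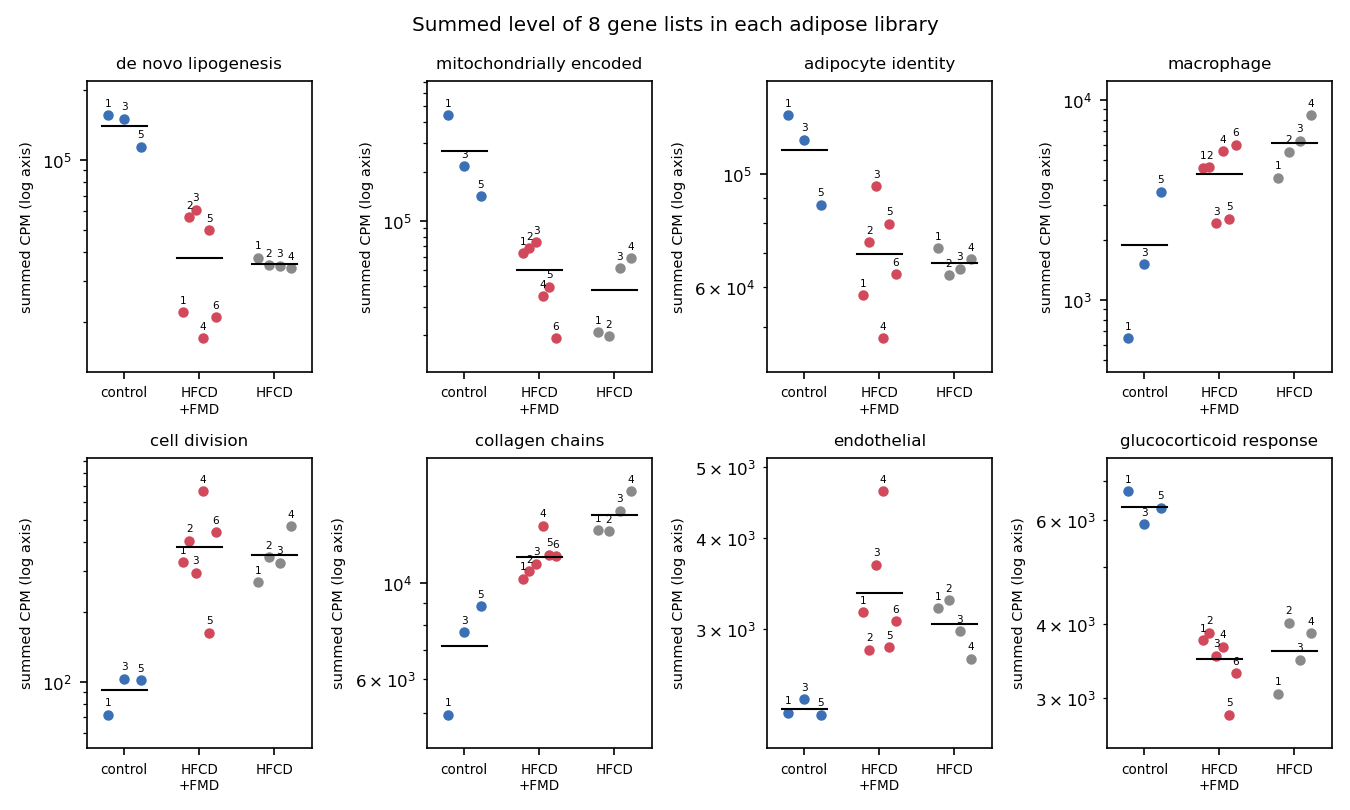
Summed CPM on log axes of 8 gene lists in each adipose library of the 3 diets, with points numbered by replicate and a line at the arithmetic mean. The summed levels of lipogenesis, mitochondrially encoded and glucocorticoid-response genes lie lower in all 6 HFCD+FMD libraries than in all 3 control libraries, and those of cell division, collagen and endothelial genes lie higher.

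Part of the collagen genes and fewer of the other matrix genes were higher. Of 25 collagen genes 11 passed as higher and 0 as lower (median 0.64), and of 43 other matrix genes 9 and 1. Col8a1, a short-chain collagen of vessel walls, measured 4.84, 4.58 and 4.16 CPM in control and 9.34 to 14.1 CPM with a median of 12.0 in HFCD+FMD (log2FC 1.39, SE 0.16, adjusted p = 0.0011). Col6a3, the collagen VI chain from which endotrophin is cleaved, measured 109.8, 179.7 and 239.8 CPM and 349 to 527 CPM with a median of 416 (log2FC 1.28, SE 0.22, adjusted p = 0.00422). Hspg2, the basement membrane proteoglycan perlecan, had a log2FC of 0.75, adjusted p = 0.00971. Pdgfrb, the receptor that marks pericytes and fibroblast-like progenitors, measured 46.6, 53.4 and 63.6 CPM and 85.6 to 131 CPM with a median of 106 (log2FC 0.98, SE 0.15, adjusted p = 0.00236). For these 4 genes the groups did not overlap. The single lower matrix gene was Ccn1, a matricellular protein, with 84.4, 63.7 and 259 CPM in control and 37.3 to 67.7 CPM with a median of 52.0 in HFCD+FMD (log2FC -1.41, SE 0.38, adjusted p = 0.0231). Its log2 fold change was -0.54 without control replicate 5. Dropping control replicate 1 ended the call of Hspg2 (adjusted p = 0.0576). Ccn1 did not pass once control replicate 5 was dropped (adjusted p = 0.2). The 11 collagen calls became 2 without control replicate 1 and 3 without control replicate 3, and the 9 higher calls of other matrix genes became 0 and 1. None of these 43 genes passed in every fit without 1 library.

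Endothelial genes were higher in part. Of 28 endothelial genes 12 passed as higher and 0 as lower (median 0.52). Aplnr, the apelin receptor of sprouting endothelium (chr2:85136225-85139923, plus strand), measured 16.9, 11.5 and 9.63 CPM in control and 68.9, 53.9, 136, 135, 57.2 and 70.2 CPM in HFCD+FMD (log2FC 2.79, SE 0.36, adjusted p = 0.00183). HFCD measured 60.4 to 77.7 CPM. Replicates 3 and 4 were the highest. Tek, the angiopoietin receptor TIE2, measured 57.3, 51.2 and 65.8 CPM and 75.8 to 95.8 CPM with a median of 87.2 (log2FC 0.56, SE 0.11, adjusted p = 0.00712), and Angpt2, the ligand that loosens that receptor's signal, had a log2FC of 1.66, adjusted p = 0.0126. Of 16 smooth muscle and pericyte genes 2 (12.5%) passed as higher and 0 as lower, a share near the 10.5% over all genes tested, and the list's median was -0.07. In this list 1 gene was lower at an unadjusted p below 0.05, 0 with DESeq2 or limma voom and 3 with quality-weighted limma voom. The higher ones were Notch3, a receptor of mural cells (log2FC 0.82, SE 0.14, adjusted p = 0.00392), and Kcnj8, a potassium channel of pericytes (log2FC 1.34, SE 0.25, adjusted p = 0.00587). The groups did not overlap for these 5 genes. Of 19 mesothelial genes 0 passed in either direction with edgeR. At an unadjusted p below 0.05, 4 were lower, DESeq2 called 1 lower, limma voom 0 and limma voom with quality weights 2. Wt1, a transcription factor of visceral mesothelium and progenitors, measured 37.9, 42.1 and 53.4 CPM in control and 8.90 to 39.3 CPM with a median of 20.1 in HFCD+FMD (log2FC -1.11, SE 0.44, adjusted p = 0.0895), and Msln, which encodes mesothelin, had a log2FC of -0.42, adjusted p = 0.71. Angpt2 failed the threshold without control replicate 1 (adjusted p = 0.0721). The 12 endothelial calls became 3 without control replicate 1, 5 without control replicate 3 and 8 without control replicate 5.

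Genes that respond to glucocorticoids were lower in part: 8 of 20 passed as lower and 0 as higher (median -0.66). Sult1a1, a sulfotransferase, measured 543, 473 and 450.3 CPM in control and 223, 233, 214, 171, 207 and 166 CPM in HFCD+FMD (log2FC -1.27, SE 0.14, adjusted p = 0.000966). Dusp1, a phosphatase of MAP kinases, measured 147, 117 and 154 CPM and 53.6 to 84.1 CPM with a median of 64.1 (log2FC -1.05, SE 0.20, adjusted p = 0.00604). Glul, the glutamine synthetase, measured 3532, 2942 and 2540.3 CPM and 1124 to 1943 CPM with a median of 1413 (log2FC -1.02, SE 0.21, adjusted p = 0.00815), and Errfi1, an inhibitor of the EGF receptor, had a log2FC of -1.21, adjusted p = 0.017. Of 25 antioxidant genes 8 passed as lower and 1 as higher. Gsta3, a glutathione transferase, measured 251, 212 and 234 CPM and 21.4 to 89.6 CPM with a median of 69.1 (log2FC -1.96, SE 0.34, adjusted p = 0.00444). Sod1, the cytosolic superoxide dismutase, Cat, the catalase, and Gpx4, which reduces lipid peroxides, had log2FCs of -0.88, adjusted p = 0.00442, -1.08, adjusted p = 0.00753 and -0.76, adjusted p = 0.011. The higher one was Txnrd1, a thioredoxin reductase (0.57, adjusted p = 0.0188). For the 8 lower genes named here the groups did not overlap. The calls of Cat, Gpx4 and Txnrd1 were lost without control replicate 1 (adjusted p from 0.0501 to 0.0728). Dropping control replicate 3 ended the call of Txnrd1 (adjusted p = 0.0615). Errfi1 did not pass once control replicate 5 was dropped (adjusted p = 0.0662). The 8 glucocorticoid calls became 4 without control replicate 1 and 3 without control replicate 5, and the 8 antioxidant calls became 2 without control replicate 1.

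Genes better known from neurons were higher in part, and Slc5a7 was among the largest rises. Of 16 neuron and Schwann cell genes 4 passed as higher and 1 as lower. Slc5a7, the choline transporter of cholinergic neurons (chr17:54273590-54299034, minus strand), measured 0.0968, 0.222 and 0.1998 CPM in control and 24.8, 22.4, 25.6, 120.0, 6.84 and 33.2 CPM in HFCD+FMD (log2FC 7.65, SE 1.11, adjusted p = 0.00233). HFCD measured 69.1 to 119 CPM. Every HFCD+FMD library lay far above the control libraries, and replicate 4 stood apart at 120.0 CPM. Without it the log2 fold change was 6.87. Tph2, the serotonin-producing hydroxylase of neurons, measured 0.678, 1.42 and 1.60 CPM in control, 5.51 to 10.6 CPM with a median of 7.95 in HFCD+FMD and 29.4 to 125 CPM in HFCD (log2FC 2.61, SE 0.48, adjusted p = 0.00535), and differed from HFCD as well (log2FC -3.01, SE 0.34, adjusted p = 0.00679). Ntm, a cell adhesion protein, measured 1.07, 1.24 and 1.48 CPM, 1.91 to 6.05 CPM with a median of 3.09 and 11.5 to 18.9 CPM in the same order (log2FC 1.51, SE 0.38, adjusted p = 0.0177), with log2FC -2.16, SE 0.29, adjusted p = 0.0133 against HFCD. Syp, a synaptic vesicle protein, had a log2FC of 0.45, adjusted p = 0.0374 against control and log2FC -0.96, SE 0.12, adjusted p = 0.00913 against HFCD. For Tph2 and Ntm each HFCD+FMD library lay above all control and below all HFCD libraries. Ntm and Syp failed the threshold without control replicate 1 (adjusted p from 0.084 to 0.183). The calls of Ntm and Syp were lost without control replicate 3 (adjusted p from 0.0675 to 0.106). Syp was lost as well without HFCD+FMD replicate 1, 3 or 4 (adjusted p from 0.0579 to 0.0593).

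Among the largest falls were genes better known from liver. Of 12 liver and Mup genes 7 passed as lower and 0 as higher (median -3.47), and 4 of the 12 passed in every fit that left out 1 library. Cyp2e1, an ethanol-oxidising cytochrome P450 also made in fat, measured 7401, 4369 and 3805 CPM in control and 499 to 1329.9 CPM with a median of 1069 in HFCD+FMD (log2FC -2.39, SE 0.38, adjusted p = 0.00301). Cyp2f2, another cytochrome P450 (chr7:27119909-27133660, plus strand), measured 47.5, 23.5 and 39.3 CPM and 1.92, 2.10, 1.30, 0.237, 4.55 and 0.211 CPM (log2FC -4.40, SE 0.73, adjusted p = 0.0036). Mup3, a major urinary protein whose family shares near-identical sequence so that reads may be split among its members, measured 53.6, 16.8 and 11.4 CPM and 0.237 to 3.74 CPM with a median of 1.09 (log2FC -4.25, SE 0.65, adjusted p = 0.00258). Pdzk1ip1, a small membrane protein, went from 5.51 to 19.9 CPM to 0.151 to 1.15 CPM (log2FC -4.53, SE 0.52, adjusted p = 0.00128), Acsm3, a medium-chain acyl-CoA synthetase, from 61.1 to 231 CPM to 0.267 to 18.2 CPM (log2FC -3.95, SE 0.74, adjusted p = 0.00593), and Slc9a2, a sodium-proton exchanger, from 1.04 to 2.42 CPM to 0.0288 to 0.180 CPM (log2FC -3.86, SE 0.58, adjusted p = 0.00249). The groups did not overlap for these 6 genes. Fgb and Fgg, fibrinogen chains, and Igkv6-14, an antibody light chain segment, were called lower with 1 high control library, replicate 3, at 0.581, 11.8 and 0.0400 CPM, 0.290, 9.56 and 0.0799 CPM and 0, 123 and 0.0799 CPM. Their log2 fold changes were -4.25, -4.16 and -7.95 with that library and -0.22, 0.21 and 1.56 without it. Without control replicate 1 the log2 fold changes of Pdzk1ip1, Mup3 and Acsm3 were -3.86, -3.31 and -3.22, and without HFCD+FMD replicate 5 those of Cyp2f2 and Mup3 were -4.99 and -4.85. On the rising side S100g, a calcium-binding protein, had 0 counts in all 3 control libraries and 0.0900 to 2.55 CPM with a median of 0.911 in HFCD+FMD. Against a floor of 3 counts over the control group its mean was at least 21.7-fold higher (adjusted p = 0.0222). Tm4sf19, a tetraspanin-like membrane protein, measured 0, 0 and 0.1998 CPM and 0.225 to 13.9 CPM with a median of 2.15 (log2FC 5.80, SE 1.58, adjusted p = 0.0242). Its log2 fold change was 10.24 without control replicate 5 and 5.13 without HFCD+FMD replicate 4. Dropping control replicate 1 ended the calls of S100g, Tm4sf19, Fgb and Fgg (adjusted p from 0.0532 to 0.0996). S100g, Tm4sf19, Igkv6-14, Fgb and Fgg did not pass once control replicate 3 was dropped (adjusted p from 0.0719 to 0.939). Fgb was lost as well without HFCD+FMD replicate 1, 2, 3, 4, 5 or 6 (adjusted p from 0.0507 to 0.0606). Fgg was lost as well without HFCD+FMD replicate 1, 2, 4 or 6 (adjusted p from 0.0521 to 0.0567).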

How the data were processed

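RNA was extracted with RNeasy columns, depleted of ribosomal RNA with KAPA RiboErase chemistry and sequenced on an Illumina instrument, per the labels' protocols. STAR 2.5.3, the build mm10, R 3.5.3, edgeR and limma are named in the submitters' processing notes, while the read counter and annotation are not given in the sources used here. For adipose tissue the deposited files of the authors hold raw counts per gene, and log2 values that served 1 alternative. Heart tables were not used. Symbols come from the deposited log2 table, those of 63 genes from GENCODE M21 (GRCm38), as do coordinates.

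Counts of all 13 adipose libraries of 3 diets were fitted in 1 model with edgeR 4.0.16 in R 4.3.3: TMM scaling, filterByExpr on diet (15112 of 15145 genes kept) and a two-sided robust quasi-likelihood F-test with Benjamini-Hochberg adjustment over all genes tested. Levels are TMM-scaled CPM; the SE is the log2 fold change divided by the square root of F. Library totals of 15604982 to 40831656 counts make genes under about 1 CPM the least precise. The script was tested on simulated data.

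The comparison, the gene lists and the panel of 41 genes were chosen with earlier results of these data known, so no list has a test of its own. The rule for names took, among genes that passed with a mean of at least 1 CPM in either diet, the 15 strongest rises and 15 strongest falls by log2 fold change, the 4 members (or fewer) of each list with the smallest p and the whole panel. The genes described are a subset of these, chosen after their values were seen. Srebf2, Anln, Adrb1, Ptpn1, Idh2, Prkaa1, Prkaa2, Rptor, Cd86, Syp and Txnrd1 fall outside the rule and were named after their values were seen, and other genes that passed are counted in their lists but not reported here. Alternatives were RLE and upper-quartile scaling, DESeq2 1.42.0, limma 3.58.1 voom with and without library quality weights, other low-count filters, only the 2 diets, age as a covariate, no mitochondrially encoded genes, the deposited log2 values, a 2-fold minimum and each library left out.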

Additional observations from a re-analysis of the deposited data

Results flagged for a closer look

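In 8 of the genes named above the highest of the 6 HFCD+FMD libraries stood apart from the others by more than a 95% criterion for a single outlier (Dixon's test) allows. Replicate 4 was that library for Lep at 2386 CPM, Ucp1 at 7.53 CPM, Hspg2 at 1117 CPM, Angpt2 at 62.8 CPM and Slc5a7 at 120.0 CPM. Replicate 5 stood apart for Irs1 at 137 CPM and for Pdzk1ip1 at 1.15 CPM, and replicate 6 for Igkv6-14 at 0.725 CPM. The next highest libraries were at 1678 CPM for Lep, 1.51 for Ucp1, 857 for Hspg2, 29.1 for Angpt2, 33.2 for Slc5a7, 74.9 for Irs1, 0.461 for Pdzk1ip1 and 0.211 for Igkv6-14. Chance alone flags about 1 such group in 20, and 124 genes were looked at.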

How the results depend on the processing

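The counts of 1580 higher and 1398 lower genes stayed within 1.5 times with both other scalings, DESeq2, quality-weighted limma voom, both other filters, the age covariate, removal of the mitochondrially encoded genes and the deposited log2 values. Limma voom called 861 higher, the fit of only control and HFCD+FMD libraries 946 higher and 888 lower, and the 2-fold minimum left 815 and 497. Leaving out each library in turn gave 372 to 1874 higher and 291 to 1626 lower genes, with both lowest counts in the fit without control replicate 1 and both highest without control replicate 5. Of 109 genes named above that passed, 58 passed in every fit without 1 library. Calls lost among these named genes numbered 22 with limma voom, 12 with only the 2 diets, 10 with quality weights, 6 with age as a covariate, 5 with the deposited log2 values, 26 with the 2-fold minimum and 0 to 2 with each other setting. Named genes that a setting filtered out or gave no adjusted p are not counted as lost, which concerns DESeq2 and the stricter filter among others. Signs turned in these leave-one-out ranges of log2 fold change: Srebf1 -0.16 to 0.41 (lowest without control replicate 5, and -0.02 without HFCD+FMD replicate 5), Ucp1 -5.91 to 2.61 and Ppargc1a -1.53 to 0.035 (both highest without control replicate 1), Msln -0.82 to 1.03 (highest without control replicate 5), and Igkv6-14 -8.53 to 1.56 and Fgg -4.74 to 0.21 (both highest without control replicate 3). Msln was 0.24 with quality weights. The cause was not tested, beyond the loss of 1 library. No paired analysis was possible because the replicate numbers were given in accession order and tie no sample to another. With 3 control libraries, small changes and genes at low CPM are the least reliable.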

Other observations

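Non-coding RNA showed another balance of directions than protein-coding genes. Of 13755 protein-coding genes tested, 1532 passed as higher and 1192 as lower in HFCD+FMD against control. Of 295 long intergenic non-coding RNAs, 9 passed as higher and 53 as lower, and of 322 antisense RNAs 12 and 57. Of 194 processed transcripts 8 were higher and 39 lower. Whether the counting used strand is not given in the sources used here, and without strand reads of an antisense RNA and of its partner gene cannot be told apart. The difference between these classes was not tested.

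Of 22 genes of B and plasma cells, 0 passed in either direction with edgeR, while 3 were higher at an unadjusted p below 0.05, DESeq2 called 2 higher and limma voom 1. Their summed level was 1483 to 5076 CPM in control and 2762 to 8645 CPM in HFCD+FMD. Of 26 fibroblast and progenitor genes 1, Pdgfrb, passed as higher and 0 as lower with edgeR, and 1 was lower at an unadjusted p below 0.05, 0 with DESeq2 and limma voom and 1 with quality weights.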
